A study of Mus musculus with 12 samples.

Results

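Mouse cells incubated with EXOmock vesicles and mouse cells given Mock mRNA were compared gene by gene in 4 of the 12 RNA sequencing libraries of the series. The 4 are the control groups of 2 experiments, taken by their labels and because both were seen to carry leukocyte transcripts. No measured difference between the groups was used to choose them, but earlier results of these data were known. The EXOmock group holds 2 libraries labelled DC2.4, wild type, an immortalized mouse dendritic cell line. The cells spent 24 h with vesicles shed by 4T1 cells that had received Mock mRNA. The other group holds 2 libraries labelled 4T1, wild type, a line grown from a mouse mammary carcinoma, given Mock mRNA, which encodes the fluorescent protein EGFP. They are called the 4T1-labelled Mock libraries here. Each group has 1 library of preparation 1 and 1 of preparation 2. Neither group was left without cargo or reagent: the vesicles came from Mock-treated cells, and the mRNA was given with a transfection reagent or in lipid nanoparticles, without a statement of which served for which library or for how long. Cell line label, delivery and experiment all differ between the groups together, so they cannot be told apart. The labels do not say that preparations were separate cultures, so the p-values reflect how far the libraries of a group differ, and that difference may be technical.

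Macrophages and dendritic cells are phagocytes of the myeloid lineage. They read their surroundings through pattern recognition receptors such as the Toll-like receptors, call in other leukocytes with chemokines, and take up particles and lipoproteins through scavenger receptors. Sterol synthesis in such cells is driven by the transcription factor SREBP2, which is held back by INSIG proteins when membranes are rich in sterol. Amino acid shortage and misfolded protein both act through the factor ATF4 in the integrated stress response.

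Total counts were 14.1 and 18.7 M in the EXOmock libraries and 17.9 and 25.2 M in the 4T1-labelled Mock libraries. A floor of 3 counts corresponded to 0.213 and 0.160 CPM, counts per M of all counts in a library, in EXOmock and to 0.168 and 0.119 CPM in 4T1-labelled Mock. Mitochondrial genes took 1.97 and 1.96% of EXOmock counts and 2.28 and 2.26% of 4T1-labelled Mock counts. Between the libraries of one group, the median variance over that of counting was 1.47 in EXOmock and 1.45 in 4T1-labelled Mock, and between the groups it was 32.2. The value between groups used counts summed over the libraries of each group, so it is not on the same scale as the other 2. A set of 21 genes had 10 or more counts in each preparation 1 library of the whole series and 0 in each preparation 2 library. These summed to 175 CPM in EXOmock preparation 1 and 165 CPM in 4T1-labelled Mock preparation 1, and 0 of the 21 were called different.

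Leukocyte transcripts were present in both groups, which goes against the 4T1 label. That presence was part of how the groups were chosen, so it is described here and is not a separate finding. Ptprc, the gene of CD45 on all leukocytes, stood at 309 and 310 CPM in EXOmock, against at 310 and 312 CPM in 4T1-labelled Mock (log2 fold change -0.01, edgeR adjusted p = 0.958). Spi1, the gene of the myeloid transcription factor PU.1, had 181 and 179 CPM in EXOmock, against 190 and 191 CPM in 4T1-labelled Mock. Tyrobp, the adaptor of myeloid activating receptors, had 295 and 301 CPM in EXOmock, against 311 and 312 CPM in 4T1-labelled Mock. Itgam, the integrin chain CD11b, was the one marker of these 4 that stood higher by more than 0.1 on the log2 scale, at 139 and 138 CPM in EXOmock against 98.2 and 93.4 CPM in 4T1-labelled Mock (log2 fold change 0.54 ± 0.04, SE; edgeR adjusted p = 8.96e-08). The epithelial adhesion gene Epcam held 3 and 0 counts in EXOmock, against 5 and 0 in 4T1-labelled Mock. The keratin gene Krt8 held 8 and 0 counts in EXOmock and 15 and 2 counts in 4T1-labelled Mock. The 25 epithelial markers summed to 142 and 133 CPM in EXOmock, against 166 and 166 CPM in 4T1-labelled Mock. Of these sums, the protease gene St14 held 134 and 131 CPM in EXOmock, against 158 and 164 CPM in 4T1-labelled Mock.

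Of 22 dendritic cell markers, 3 had 0 counts in all 4 libraries and 12 had enough counts to be tested, among them Itgax and Cd24a, described below. The growth factor receptor gene Flt3 had 0 counts in all 4 libraries, and the class II gene H2-Ab1 had 8 and 0 counts in EXOmock and 9 and 0 in 4T1-labelled Mock. Adgre1, the macrophage antigen F4/80, stood at 338 and 339 CPM in EXOmock, against 371 and 373 CPM in 4T1-labelled Mock. Xist, the noncoding RNA of the inactive X chromosome, stood at 773 and 767 CPM in EXOmock, against 350 and 358 CPM in 4T1-labelled Mock (log2 fold change 1.12 ± 0.04, SE; edgeR adjusted p = 2.35e-11). Xist overlaps its antisense partner Tsix, and counting without strand cannot separate the pair. The Y-linked gene Ddx3y held 2 and 0 counts in EXOmock and 3 and 1 counts in 4T1-labelled Mock. Granulocyte-macrophage colony-stimulating factor, Csf2, had 0 counts in all 4 libraries, and Myc stood at 2.77 and 3.32 CPM in EXOmock, against 1.62 and 2.02 CPM in 4T1-labelled Mock.

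Of 14863 genes tested, 7984 were called different (53.7%, edgeR adjusted p below 0.05), of which 3882 were higher in EXOmock (26.1%) and 4102 lower (27.6%). Most differences were small. The median absolute log2 fold change of the called genes was 0.46, the quartiles of all genes tested were -0.33 and 0.37, and the median over all was 0.00. A difference of 2-fold or more was called for 1121 genes (7.54%), with 667 higher in EXOmock (4.49%) and 454 lower (3.05%). Among the 8013 genes with 20 CPM or more in the higher group, 134 were 2-fold higher and 183 were 2-fold lower, while 196 of the 2-fold rises and 92 of the 2-fold falls had under 1 CPM in the higher group. These shares are the background against which each gene group below is read.

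**Figure D1:**
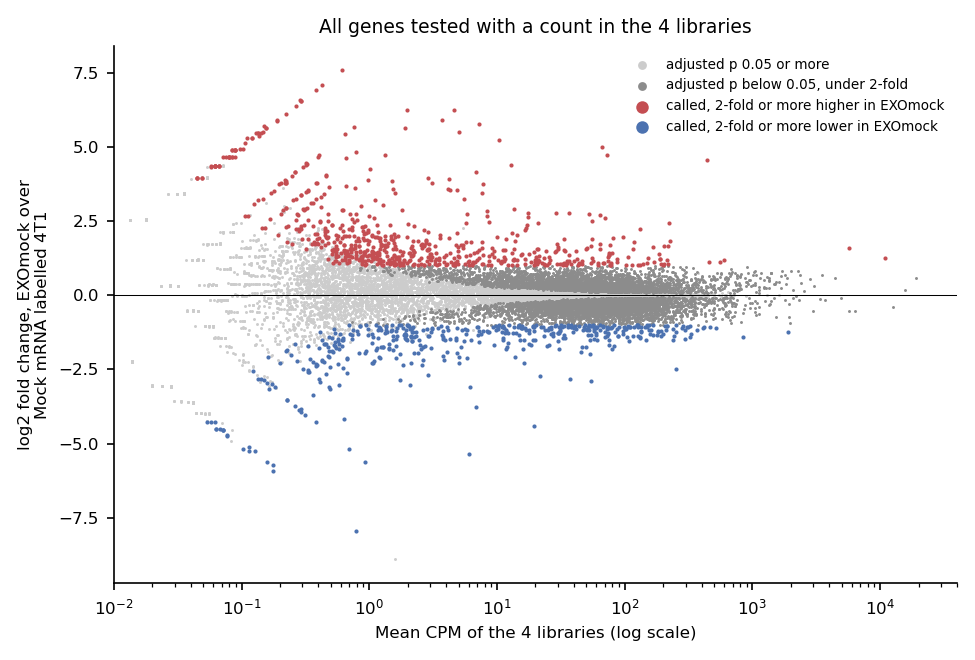
Each point is a gene tested that had a count in the 4 libraries, with its mean CPM over these libraries on a log axis and its log2 fold change, EXOmock over 4T1-labelled Mock. Red and blue points are the genes called at 2-fold or more, and the diagonal streaks at the left are genes with a few counts in one group and 0 in the other.

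The same pairing of labels and delivery exists in 4 other libraries, EXOuniSTING labelled DC2.4 and uniSTING mRNA labelled 4T1, which share no library with the first comparison. There, 7547 of 14863 genes were called (50.8%) and 959 at 2-fold or more (6.45%), of which 575 were higher (3.87%) and 384 lower (2.58%). Of the 1121 genes called at 2-fold in EXOmock against 4T1-labelled Mock, 622 were also called in the same direction in the uniSTING pair and 22 in the opposite one. Genes called at 2-fold in the same direction in both pairs numbered 346, which is 30.9% of the first list and 36.1% of the second. Of these, 232 were higher and 114 lower in the vesicle-treated libraries. The difference between both comparisons was itself called for 4157 genes (28.0%), and at 2-fold or more for 436 (2.93%).

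The 12 largest rises among genes with 20 CPM or more included a chemokine receptor, a matrix protein and a lipid enzyme. Ccr1, the receptor for CCL3, CCL5 and related chemokines (chr9:123762161-123768729, minus strand, GRCm39), had 129 CPM in each EXOmock library, against 4.36 and 3.73 CPM in the 4T1-labelled Mock libraries (log2 fold change 5.01 ± 0.08, SE; edgeR adjusted p = 4.17e-14). Thbs1, the matrix protein thrombospondin 1 (chr2:117942357-117957614, plus strand), had 855 and 846 CPM in EXOmock, against 35.4 and 36.6 CPM in 4T1-labelled Mock (log2 fold change 4.56 ± 0.03, SE; edgeR adjusted p = 4.31e-20). Both genes were separated by more than 20-fold with libraries of a group within 20% of each other. Acsbg1, an acyl-CoA synthetase, stood at 19.6 and 21 CPM in EXOmock, against at 0.559 and 0.516 CPM in 4T1-labelled Mock, a difference of 5.24 on the log2 scale. The coagulation factor V gene F5 had 23.7 and 25.7 CPM in EXOmock, against 1.17 and 1.19 CPM in 4T1-labelled Mock. Hilpda, a lipid droplet protein that inhibits triglyceride breakdown, had 114 and 107 CPM in EXOmock, against 17.3 and 16.4 CPM in 4T1-labelled Mock. Arg1, the arginase of alternatively activated macrophages, had 29.7 and 30.5 CPM in EXOmock, against 5.37 and 4.52 CPM in 4T1-labelled Mock. The other members of the 12 largest rises were the chemokine genes Ccl6 and Ccl2, described below, and Sh2d6, Stfa3, Hid1 and Snhg12, at log2 fold changes of 2.77, 2.76, 2.76 and 2.72.

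Among the 12 largest falls, lipid enzymes were frequent. Id3, an inhibitor of basic helix-loop-helix factors (chr4:135870808-135873066, plus strand, GRCm39), fell to 1.78 and 1.71 CPM in EXOmock, against 37.8 and 36.6 CPM in 4T1-labelled Mock (log2 fold change -4.41 ± 0.09, SE; edgeR adjusted p = 1.47e-13). Acss2, which makes acetyl-CoA from acetate, had 6.12 and 5.35 CPM in EXOmock, against 37.9 and 38.3 CPM in 4T1-labelled Mock. Fads2, a fatty acid desaturase, had 19.4 and 19.0 CPM in EXOmock, against 71.6 and 73.5 CPM in 4T1-labelled Mock. In these 3 genes the EXOmock libraries lay well below both 4T1-labelled Mock libraries. Oas3, an interferon-induced sensor enzyme of double-stranded RNA, had 10.0 and 8.29 CPM in EXOmock, against 65.9 and 64.1 CPM in 4T1-labelled Mock. Rasgrp3, an activator of Ras proteins, had 77.6 and 74.6 CPM in EXOmock, against 421 and 430 CPM in 4T1-labelled Mock. Scd1, Fabp4, Asb10, Acat2 and Lpin1 fell by 1.99, 1.81, 1.81, 1.76 and 1.75 on the log2 scale. Selenbp1 fell by 1.80, with an adjusted p of 5.59e-05 in edgeR and 0.269 in DESeq2. Gapdh met the rule for the largest falls through 1 library: it had 12.7 and 14.7 CPM in EXOmock, against 18.7 and 173 CPM in 4T1-labelled Mock. Its log2 fold change was -2.88 (edgeR adjusted p = 0.00438), and -0.43 without 4T1-labelled Mock preparation 2 (edgeR adjusted p = 0.327). Gapdh has many near-identical pseudogene copies, and unique mapping makes its counts uncertain.

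**Figure D2:**
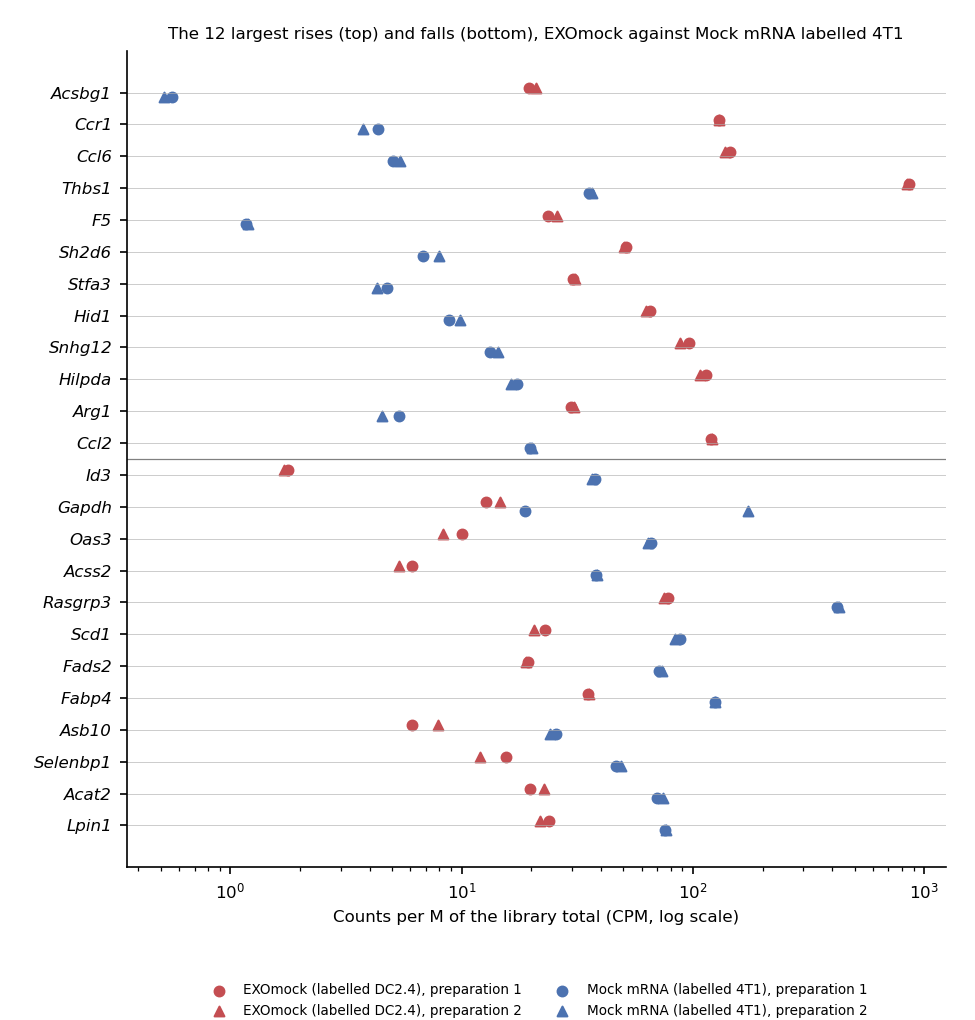
CPM on a log axis of the 12 largest rises and 12 largest falls in each of the 4 libraries, EXOmock in red and 4T1-labelled Mock in blue, circles for preparation 1 and triangles for preparation 2. The groups are apart in each row, and Gapdh is the row in which libraries of one group differ most, at 18.7 and 173 CPM.

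Of 17 chemokine genes tested, 8 were called higher in EXOmock, 0 lower and 9 did not pass (DESeq2 also called 8 higher and 0 lower). Of the 8, 6 differed by 2-fold or more, and the median log2 fold change of the 17 was 0.68, against 0.00 over all genes tested. Ccl2, the main attractant of monocytes, stood at 120 and 121 CPM in EXOmock, against 19.8 and 20.2 CPM in 4T1-labelled Mock (log2 fold change 2.59 ± 0.05, SE; edgeR adjusted p = 1.05e-13). Its neighbour in function Ccl7 had 13.9 and 12.1 CPM in EXOmock, against 0.727 and 0.714 CPM in 4T1-labelled Mock. Ccl6, a myeloid chemokine of rodents, had 144 and 137 CPM in EXOmock, against 5.03 and 5.39 CPM in 4T1-labelled Mock. Ccl9, of the same rodent branch, had 309 and 311 CPM in EXOmock, against 98.4 and 96.4 CPM in 4T1-labelled Mock. In each of these 4 genes both EXOmock libraries lay above both 4T1-labelled Mock libraries by 3-fold or more. Cxcl10, an attractant induced by interferon, held 7 and 0 counts in EXOmock and 8 and 9 counts in 4T1-labelled Mock (edgeR adjusted p = 0.393, and 0.00213 without EXOmock preparation 1). Of 8 chemokine receptor genes tested, 6 were called higher and 0 lower, but the 5 other than Ccr1 stood under 5 CPM in every library. Of these, chosen after its values were seen, the fractalkine receptor gene Cx3cr1 had 2.99 and 3 CPM in EXOmock, against 1.23 and 1.03 CPM in 4T1-labelled Mock. Receptor calls were 4 higher with DESeq2 and 3 higher and 1 lower with the 4 libraries fitted alone.

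Receptors for microbial and particulate ligands moved in both directions. Cd14, the co-receptor for lipopolysaccharide, stood at 354 and 350 CPM in EXOmock, against at 99.6 and 101 CPM in 4T1-labelled Mock (log2 fold change 1.81 ± 0.04, SE; edgeR adjusted p = 1.03e-13). Tlr4, the lipopolysaccharide receptor itself, had 124 and 119 CPM in EXOmock, against 52.2 and 52.0 CPM in 4T1-labelled Mock. Tlr2, the receptor for bacterial lipopeptides, had 238 and 229 CPM in EXOmock, against 140 and 137 CPM in 4T1-labelled Mock. These 3 receptors were higher in both EXOmock libraries. Tlr9, the endosomal receptor for CpG DNA, had 4.84 and 5.51 CPM in EXOmock, against 18.1 and 18.4 CPM in 4T1-labelled Mock. Not every Toll-like receptor gene is given singly here, and surface and endosomal receptors were not compared as groups. Ticam1, the adaptor TRIF, had 17.4 and 20.3 CPM in EXOmock, against 47.8 and 49.1 CPM in 4T1-labelled Mock, and the cytosolic sensor genes Nod1 and Nod2 fell by 1.16 and 1.06 on the log2 scale. Over the list of nucleic acid sensing and adaptor genes, 6 of 30 were called higher and 14 lower. The kinase gene Tbk1 had 62.1 and 68.5 CPM in EXOmock, against 78.9 and 83.4 CPM in 4T1-labelled Mock (log2 fold change -0.31, edgeR adjusted p = 0.00018).

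Scavenger and endocytic receptors also moved in both directions, with 11 of 25 genes called higher and 7 lower. Over all genes tested, 26.1% were higher and 27.6% lower, so the falls were near the share over all genes. Cd36, a receptor for oxidized lipoprotein, had 128 and 130 CPM in EXOmock, against 34.8 and 33.1 CPM in 4T1-labelled Mock, with a log2 fold change of 1.93 and an adjusted p of 1.28e-08 in edgeR and 0.408 in DESeq2. Msr1, the class A scavenger receptor, had 258 and 274 CPM in EXOmock, against 115 and 114 CPM in 4T1-labelled Mock. Fcgr1, the high-affinity IgG receptor, had 111 and 108 CPM in EXOmock, against 41.3 and 40.5 CPM in 4T1-labelled Mock. These 3 uptake receptors were higher in EXOmock, while Scarb1 and Lrp1, which take up lipoproteins, were lower. Scarb1, the receptor for high-density lipoprotein, had 145 and 136 CPM in EXOmock, against 288 and 288 CPM in 4T1-labelled Mock. Lrp1 had 463 and 472 CPM in EXOmock, against 887 and 899 CPM in 4T1-labelled Mock.

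Markers of macrophages moved in both directions, while those of dendritic cells were mostly lower. Of 23 macrophage and monocyte genes, 9 were called higher and 8 lower. Of 12 dendritic cell genes, 1 was higher, 8 lower and 3 did not pass, with a median of -0.33. In the uniSTING pair the dendritic cell list did not lean as far, with 1 higher, 3 lower and a median of -0.05. Lyz2, the lysozyme gene of myeloid cells, counted with the general leukocyte list, stood at 8610 and 8640 CPM in EXOmock, against 2850 and 2860 CPM in 4T1-labelled Mock, with a log2 fold change of 1.60 and an adjusted p of 7.94e-05 in edgeR and 0.657 in DESeq2. Maf, a transcription factor of resident macrophages, had 37.6 and 40.6 CPM in EXOmock, against 112 and 110 CPM in 4T1-labelled Mock. Cd68, an endosomal glycoprotein of macrophages from that same general list, had 836 and 859 CPM in EXOmock, against 1240 and 1270 CPM in 4T1-labelled Mock. Among the dendritic cell markers, Cd24a had 10.5 and 12.4 CPM in EXOmock, against 38.4 and 38.0 CPM in 4T1-labelled Mock, and Itgax, the integrin chain CD11c, had 13.7 and 11.5 CPM in EXOmock, against 24.8 and 26.3 CPM in 4T1-labelled Mock. Both lists summed to less in EXOmock, although the macrophage and monocyte list had a median log2 fold change of 0.29. Of its members, 6 were higher by 2-fold or more and 2 were lower by as much. In the uniSTING pair 11 of its members were called higher and 3 lower, with a median of 0.22. The dendritic cell list summed to 863 and 851 CPM in EXOmock, against 1290 and 1300 CPM in 4T1-labelled Mock. The macrophage and monocyte list summed to 7740 and 7720 CPM in EXOmock, against 9790 and 9820 CPM in 4T1-labelled Mock. Cybb, the catalytic chain of the phagocyte NADPH oxidase, had 456 and 460 CPM in EXOmock, against 1230 and 1210 CPM in 4T1-labelled Mock. Fewer cells of a type and less RNA per cell cannot be told apart in such bulk libraries.

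Early response genes downstream of ERK and AP-1 were more often higher than lower. Of 34 tested, 19 were called higher and 9 lower, with a median log2 fold change of 0.51, and all 7 that differed by 2-fold were higher. Fos had 77.2 and 76.1 CPM in EXOmock, against 24.6 and 26.0 CPM in 4T1-labelled Mock (log2 fold change 1.60 ± 0.07, SE; edgeR adjusted p = 1.23e-10). Fosl2, another AP-1 subunit, had 148 and 157 CPM in EXOmock, against 39.4 and 39.8 CPM in 4T1-labelled Mock. Dusp6, the phosphatase that limits ERK, had 337 and 323 CPM in EXOmock, against 104 and 104 CPM in 4T1-labelled Mock. Of the 9 that were lower, the ERK-induced genes Dusp4 and Etv5 fell by 0.42 and 0.50 on the log2 scale. Dusp4 had 153 and 147 CPM in EXOmock, against 198 and 201 CPM in 4T1-labelled Mock. Not every fall is given singly here, and these 2 need not be the widest.

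NF-kB target genes leaned the other way, with 6 of 31 called higher and 16 lower and a median of -0.29. At 2-fold or more, 4 were higher and 3 lower, and in the uniSTING pair the list did not lean this way, with 10 higher, 9 lower and a median of 0.13. Ier3 had 95.2 and 95.3 CPM in EXOmock, against 33.7 and 31.6 CPM in 4T1-labelled Mock, and Il1rn, the antagonist of the interleukin 1 receptor, had 29.8 and 26.9 CPM in EXOmock, against 12.5 and 13.1 CPM in 4T1-labelled Mock. Icam1, a leukocyte adhesion molecule, had 42.3 and 42.1 CPM in EXOmock, against 86.0 and 84.7 CPM in 4T1-labelled Mock. Cd83 and Tnfaip2 fell by 1.16 and 1.09 on the log2 scale. Tnf itself stood at 42.3 and 43.0 CPM in EXOmock, against 42.2 and 41.8 CPM in 4T1-labelled Mock (log2 fold change 0.02 ± 0.07, SE; edgeR adjusted p = 0.833). Il6 had 3 and 6 counts in EXOmock and 0 and 0 in 4T1-labelled Mock and was too low to be tested.

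Few interferon response genes were higher. Of 51 tested, 6 were called higher (11.8% of the list against 26.1% of all genes) and 17 lower, and 28 did not pass, with a median of -0.03. Ifnb1, the gene of interferon beta, had 0 counts in all 4 libraries, and 0 of the type I interferon genes passed the filter on low counts. Ifit1, an effector induced by interferon, had 0.640 and 0.909 CPM in EXOmock, against 0.615 and 0.516 CPM in 4T1-labelled Mock (edgeR adjusted p = 0.297). Parp14 and Dtx3l, which act in interferon signalling, fell by 0.97 and 0.89 on the log2 scale, and Ifitm3, a restriction factor of viral entry, was higher, at 326 and 325 CPM in EXOmock against 228 and 230 CPM in 4T1-labelled Mock. In the uniSTING pair the same list had a median of 0.44, with 28 called higher and 8 lower.

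Antigen presentation genes were called lower more often than higher. Of 23 MHC class I pathway genes, 1 was called higher and 9 lower, with 0 by 2-fold, while 26.1% of all genes were higher and 27.6% lower. The class I median was -0.08 here and -0.03 in the uniSTING pair, where 5 were called higher and 7 lower. The peptide transporter gene Tap1 had 45.8 and 44.2 CPM in EXOmock, against 69.2 and 67.1 CPM in 4T1-labelled Mock. Of 12 MHC class II pathway genes, 2 were called higher, 1 of them by 2-fold, and 5 lower, with a median of -0.23 here and 0.18 in the uniSTING pair. The 2-fold rise was that of Cd74, the invariant chain of class II molecules, which had 155 and 151 CPM in EXOmock, against 77.2 and 73.5 CPM in 4T1-labelled Mock (log2 fold change 1.03 ± 0.06, SE; edgeR adjusted p = 1.79e-09). Of 19 co-stimulatory and checkpoint genes, 6 were called higher, 4 lower and 9 did not pass, with a median of -0.03. The co-stimulatory gene Cd86 had 62.7 and 65.2 CPM in EXOmock, against 28.5 and 29.5 CPM in 4T1-labelled Mock. Lgals9, which encodes galectin 9, had 53.9 and 51.0 CPM in EXOmock, against 13.9 and 14.4 CPM in 4T1-labelled Mock, and Cd274, the checkpoint ligand PD-L1, had 45.3 and 47.0 CPM in EXOmock, against 26.6 and 29.5 CPM in 4T1-labelled Mock. Among the 4 that were lower, Cd276 and Havcr2 each fell by 0.32 on the log2 scale.

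Cholesterol synthesis genes moved in one direction. Of 24 tested, 24 were called lower in EXOmock and 0 higher (27.6% of all genes were lower), 8 of them by 2-fold or more, with a median log2 fold change of -0.93. DESeq2 called 23 lower and 0 higher. Insig1, which retains SREBP proteins in the endoplasmic reticulum and is itself an SREBP target, had 52.4 and 58.8 CPM in EXOmock, against 165 and 158 CPM in 4T1-labelled Mock (log2 fold change -1.53 ± 0.04, SE; edgeR adjusted p = 1.07e-12). Acat2, which joins 2 acetyl-CoA units at the start of the pathway, had 19.8 and 22.7 CPM in EXOmock, against 70.2 and 74.2 CPM in 4T1-labelled Mock. Lss, the enzyme that closes the sterol rings, had 38.6 and 41.7 CPM in EXOmock, against 107 and 104 CPM in 4T1-labelled Mock. The smallest fall of the list was that of Sc5d, at 43.4 and 43.3 CPM in EXOmock, against 47.6 and 47.2 CPM in 4T1-labelled Mock. In the uniSTING pair, 23 of the 24 were called lower and 0 higher, with a median of -0.79.

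**Figure D3:**
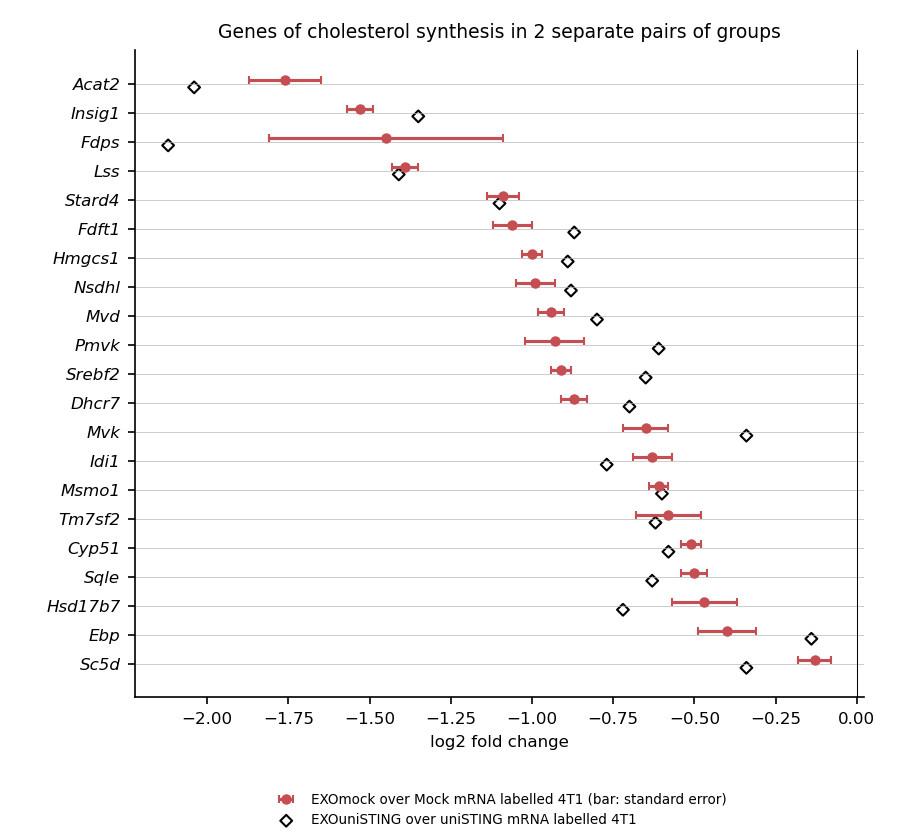
Log2 fold changes of 21 of the 24 tested genes of cholesterol synthesis, filled circles for EXOmock over 4T1-labelled Mock with standard errors and open diamonds for EXOuniSTING over uniSTING mRNA labelled 4T1. Points of both pairs of groups lie below 0, with medians over all 24 of -0.93 and -0.79.

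Promoters of 4 lists were searched for known motif letters: cholesterol synthesis, the integrated stress response, early response genes and lipid handling. RefSeq promoter windows of 300 bases, from 250 before to 50 after the start site on GRCm38.p6, were available for 17 of the 25 cholesterol genes and 38 of the 43 stress response genes. Among 8 motif strings looked at in 4 lists, which gave 32 counts, the strings CACCCCAC and TGATGCAA were chosen for display after the counts were seen. Each was searched on both strands with no mismatch. CACCCCAC, the core letters of a sterol response element, was in the windows of 2 of 17 cholesterol genes (11.8%) and in those of 891 of all 27025 genes (3.30%). TGATGCAA, the core letters of a composite C/EBP and ATF element, was in the windows of 5 of 38 stress response genes (13.2%) and in those of 279 of all 27025 genes (1.03%). A longer sterol element string, TCACCCCAC, was in the window of 1 of the 17 cholesterol genes, and the AP-1 string TGANTCA was in 0 of 25 windows of the early response list, against 8.97% of all genes. The sequences are given 5′ to 3′ on the strand of the gene, with the match in capitals, for both cholesterol genes with a match and for 2 of the stress response genes whose levels were above 40 CPM in every library.
Hmgcs1, chr13:119690101-119690400, plus strand: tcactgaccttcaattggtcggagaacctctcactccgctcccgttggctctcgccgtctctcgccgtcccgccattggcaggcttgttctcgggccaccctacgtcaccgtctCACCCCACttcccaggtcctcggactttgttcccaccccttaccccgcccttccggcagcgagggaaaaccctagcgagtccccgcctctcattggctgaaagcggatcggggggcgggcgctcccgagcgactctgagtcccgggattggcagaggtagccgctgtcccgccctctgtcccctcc
Acat2, chr17:12960676-12960975, minus strand: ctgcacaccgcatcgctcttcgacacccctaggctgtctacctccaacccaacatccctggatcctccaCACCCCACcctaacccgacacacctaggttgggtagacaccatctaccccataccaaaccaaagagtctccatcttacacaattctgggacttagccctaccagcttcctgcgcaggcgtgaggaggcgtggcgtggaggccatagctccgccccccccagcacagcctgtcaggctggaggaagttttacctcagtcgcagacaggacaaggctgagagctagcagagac
Aars, chr8:111033592-111033891, plus strand: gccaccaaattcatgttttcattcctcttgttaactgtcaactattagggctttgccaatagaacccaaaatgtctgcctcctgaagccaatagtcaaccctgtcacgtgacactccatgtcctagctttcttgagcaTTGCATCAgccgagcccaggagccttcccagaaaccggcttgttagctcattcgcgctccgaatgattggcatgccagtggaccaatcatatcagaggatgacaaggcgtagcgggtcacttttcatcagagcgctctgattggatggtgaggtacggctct
Herpud1, chr8:94386179-94386478, plus strand: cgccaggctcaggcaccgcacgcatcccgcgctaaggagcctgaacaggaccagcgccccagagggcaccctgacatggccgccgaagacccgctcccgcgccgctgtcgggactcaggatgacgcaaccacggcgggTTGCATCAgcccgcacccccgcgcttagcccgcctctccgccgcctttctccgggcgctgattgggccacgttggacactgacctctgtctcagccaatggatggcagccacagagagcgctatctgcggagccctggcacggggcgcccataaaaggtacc

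The capitals lie 136 bases before the start site in Hmgcs1 and 181 before it in Acat2, and read TTGCATCA, the other strand of TGATGCAA, 112 bases before it in both Aars and Herpud1. Hmgcs1, the synthase that makes HMG-CoA, averaged 104 ± 1.59 CPM in EXOmock, against 208 ± 1.15 CPM in 4T1-labelled Mock (SD, n = 2 each). Aars, the alanyl-tRNA synthetase, had 339 and 336 CPM in EXOmock, against 271 and 263 CPM in 4T1-labelled Mock, and Herpud1, a protein of endoplasmic reticulum degradation, had 60.0 and 59.3 CPM in EXOmock, against 45.0 and 45.6 CPM in 4T1-labelled Mock. The match is a description of letters, and the cystine transporter gene Slc7a11, whose window also holds TGATGCAA, was lower, at 31.5 and 31.2 CPM in EXOmock against 45.1 and 40.6 CPM in 4T1-labelled Mock.

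Other lipid genes fell with the sterol genes, with exceptions. Of 20 genes of lipid handling and of the sterol sensor LXR, 4 were called higher and 13 lower, with a median of -0.54. Scd1 and Scd2, which desaturate fatty acids, had lower levels: Scd1 stood at 22.9 and 20.5 CPM in EXOmock, against 87.5 and 84.0 CPM in 4T1-labelled Mock. Scd2 stood at 1120 and 1130 CPM in EXOmock, against 2660 and 2650 CPM in 4T1-labelled Mock. Fabp5, a fatty acid carrier, had 159 and 156 CPM in EXOmock, against 445 and 428 CPM in 4T1-labelled Mock. Against these, Plin2, the coat protein of lipid droplets, was higher, at 235 and 235 CPM in EXOmock, against 110 and 105 CPM in 4T1-labelled Mock, as were Cd36 and Hilpda. Lipa, the lysosomal lipase that frees cholesterol from its esters, had 175 and 179 CPM in EXOmock, against 471 and 482 CPM in 4T1-labelled Mock.

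Glycolysis and hypoxia genes were lower in most cases, with 24 of 33 called lower, 3 higher and a median of -0.63. Aldoc, an aldolase, had 77.2 and 82.1 CPM in EXOmock, against 190 and 186 CPM in 4T1-labelled Mock (log2 fold change -1.23 ± 0.04, SE; edgeR adjusted p = 1.87e-12). Pfkl, a phosphofructokinase, had 81.9 and 80.8 CPM in EXOmock, against 185 and 194 CPM in 4T1-labelled Mock. The hypoxia-induced gene Ankrd37 had 2.20 and 2.14 CPM in EXOmock, against 9.29 and 9.68 CPM in 4T1-labelled Mock. The 3 that were higher were Vegfa, Hif1a and Ero1l. Vegfa, the angiogenic growth factor, had 146 and 147 CPM in EXOmock, against 78.0 and 80.5 CPM in 4T1-labelled Mock, while Hif1a was higher by 0.28 and Ero1l by 0.10 on the log2 scale. The call of Ero1l was lost with DESeq2 (adjusted p = 0.126) and without any of 3 of the 4 libraries. In the uniSTING pair the list had a median of -0.58.

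The joint list of targets of the oxidative stress factor NRF2 and genes of iron storage and uptake was also mostly lower. Of 28 tested, 22 were called lower and 3 higher. Gstm1, a glutathione transferase, had 106 and 108 CPM in EXOmock, against 278 and 275 CPM in 4T1-labelled Mock. Me1, malic enzyme, had 38.4 and 37.1 CPM in EXOmock, against 75.1 and 76.3 CPM in 4T1-labelled Mock, and Tkt, transketolase, had 519 and 528 CPM in EXOmock, against 867 and 868 CPM in 4T1-labelled Mock. The 3 that were higher were the autophagy receptor gene Sqstm1, at 1200 and 1180 CPM in EXOmock, against 616 and 612 CPM in 4T1-labelled Mock, the transferrin receptor gene Tfrc, at 291 and 285 CPM in EXOmock, against 146 and 148 CPM in 4T1-labelled Mock, and the ferritin gene Fth1, by 0.16 on the log2 scale.

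Genes of the integrated and endoplasmic reticulum stress responses were higher in 22 of 43 cases and lower in 9, with a median of 0.16. Trib3, a pseudokinase induced by ATF4, stood furthest apart, at 375 and 371 CPM in EXOmock, against 68.2 and 70.4 CPM in 4T1-labelled Mock (log2 fold change 2.42 ± 0.04, SE; edgeR adjusted p = 4.29e-15). Ddit3, the factor CHOP, had 89.5 and 95.3 CPM in EXOmock, against 45.1 and 43.0 CPM in 4T1-labelled Mock. Ppp1r15a, the phosphatase subunit GADD34, had 87.6 and 80.6 CPM in EXOmock, against 38.9 and 40.7 CPM in 4T1-labelled Mock, and Wars, a tRNA synthetase, had 265 and 264 CPM in EXOmock, against 132 and 132 CPM in 4T1-labelled Mock. All 4 members that differed by 2-fold were higher. Against these, Edem1, a lectin of endoplasmic reticulum degradation, had 369 and 374 CPM in EXOmock, against 633 and 648 CPM in 4T1-labelled Mock, and Shmt2, the mitochondrial serine enzyme induced by ATF4, fell by 0.58 on the log2 scale.

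Ribosomal protein genes and mitotic genes moved apart. Of 48 cytosolic ribosomal protein genes, 45 were called higher and 0 lower (DESeq2, 44 and 0), with a median of 0.52 and 0 by 2-fold. They summed to 66700 and 66300 CPM in EXOmock, against 46000 and 46400 CPM in 4T1-labelled Mock. Rpl5 had 2180 and 2230 CPM in EXOmock, against 1230 and 1240 CPM in 4T1-labelled Mock (log2 fold change 0.83 ± 0.02, SE; edgeR adjusted p = 2.34e-12). Ribosomal protein genes have many pseudogene copies, so their unique counts are uncertain. Of 33 mitotic genes, 30 were called lower and 1 higher, with a median of -0.44. Mki67, the proliferation antigen, had 140 and 133 CPM in EXOmock, against 355 and 349 CPM in 4T1-labelled Mock. Cenpf, a kinetochore protein, had 42.7 and 44.3 CPM in EXOmock, against 106 and 105 CPM in 4T1-labelled Mock, and the kinase gene Plk1 had 45.6 and 44.3 CPM in EXOmock, against 88.8 and 89.3 CPM in 4T1-labelled Mock. The exception was the checkpoint gene Mad2l1, higher by 0.29 on the log2 scale. Of 38 DNA replication genes, 8 were higher and 17 lower, with a median of -0.08: Rrm2, a subunit of ribonucleotide reductase, had 104 and 105 CPM in EXOmock, against 151 and 150 CPM in 4T1-labelled Mock, and cyclin E2, Ccne2, had 29.6 and 30.2 CPM in EXOmock, against 17.1 and 18.2 CPM in 4T1-labelled Mock.

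Fold changes also ran with exonic length. Over 12039 genes with 1 CPM or more, Spearman's rho between length and log2 fold change was -0.28, as a description across genes, which are not independent, and it was -0.30 in the uniSTING pair. The shortest of 10 equal groups of genes, with a median exonic length of 0.797 kb, had a median log2 fold change of 0.26, and the longest, with 12.1 kb, had -0.23. Ribosomal protein genes were short, with a median of 1.78 kb, and mitotic genes were longer, with 4.92 kb. With the trend removed, the list medians were 0.40 for ribosomal proteins, -0.51 for mitosis, -0.89 for cholesterol synthesis and -0.61 for glycolysis. For adhesion genes, with a median length of 5.70 kb, the median was -0.38 as measured and -0.17 with the trend removed. The part of length in any single gene's difference was not tested.

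**Figure D4:**
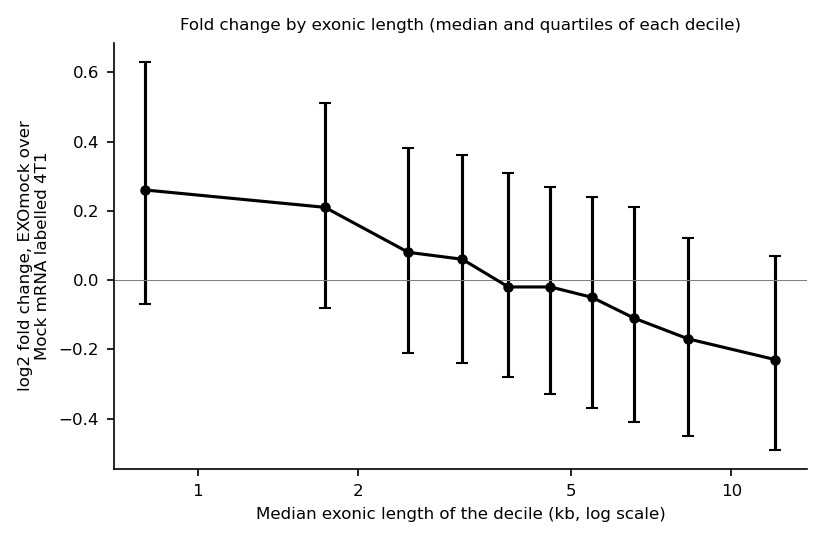
Median log2 fold change with quartiles, EXOmock over 4T1-labelled Mock, of genes in 10 equal groups of exonic length, plotted at the median length of each group on a log axis. The medians run from 0.26 in the shortest group to -0.23 in the longest.

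Matrix genes held several wide differences, most of them rises. Of 35 matrix and TGF-beta genes tested, 13 were called higher and 8 lower, and 12 of the 13 rises were 2-fold or more against 1 such fall. Col4a1, a basement membrane collagen, had 13.9 and 14 CPM in EXOmock, against 1.68 and 0.992 CPM in 4T1-labelled Mock. Mmp9, a gelatinase, had 14.9 and 14.3 CPM in EXOmock, against 3.30 and 2.18 CPM in 4T1-labelled Mock. Skil, a repressor of SMAD signalling, had 42.2 and 43.4 CPM in EXOmock, against 16.3 and 14.6 CPM in 4T1-labelled Mock. Spp1, osteopontin, named after its values were seen, was among the most abundant transcripts, at 15400 and 15500 CPM in EXOmock, against 6450 and 6500 CPM in 4T1-labelled Mock. Plau, the urokinase protease, was lower, at 474 and 485 CPM in EXOmock, against 865 and 845 CPM in 4T1-labelled Mock. Among adhesion genes, 8 of 29 were higher and 13 lower, with a median of -0.38 here and 0.08 in the uniSTING pair. The cytoskeletal linkers of integrins Tln1 and Vcl fell by 1.11 and 1.28 on the log2 scale, while the integrin chain Itgb7 had 148 and 151 CPM in EXOmock, against 63.1 and 61.2 CPM in 4T1-labelled Mock.

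Genes of vesicles and lysosomes differed little in size. Of 24 genes of vesicle tetraspanins and biogenesis, 7 were called higher and 10 lower, 0 by 2-fold, with a median of -0.01. The tetraspanin genes Cd9 and Cd63 were higher: Cd9 had 911 and 899 CPM in EXOmock, against 679 and 679 CPM in 4T1-labelled Mock, and Cd63 had 592 and 590 CPM in EXOmock, against 399 and 400 CPM in 4T1-labelled Mock. Cd81 had 69.8 and 72.1 CPM in EXOmock, against 95.2 and 95.3 CPM in 4T1-labelled Mock. Of 35 lysosomal genes, 7 were higher and 23 lower, with a median of -0.20. In the uniSTING pair the balance was the other way, with 19 higher, 13 lower and a median of 0.11. The cathepsin genes Ctsl and Ctsd were higher by 0.82 and 0.40 on the log2 scale, and Tfeb, the transcription factor of lysosomal genes, had 15.2 and 13.9 CPM in EXOmock, against 29.3 and 27.2 CPM in 4T1-labelled Mock.

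**Figure D5:**
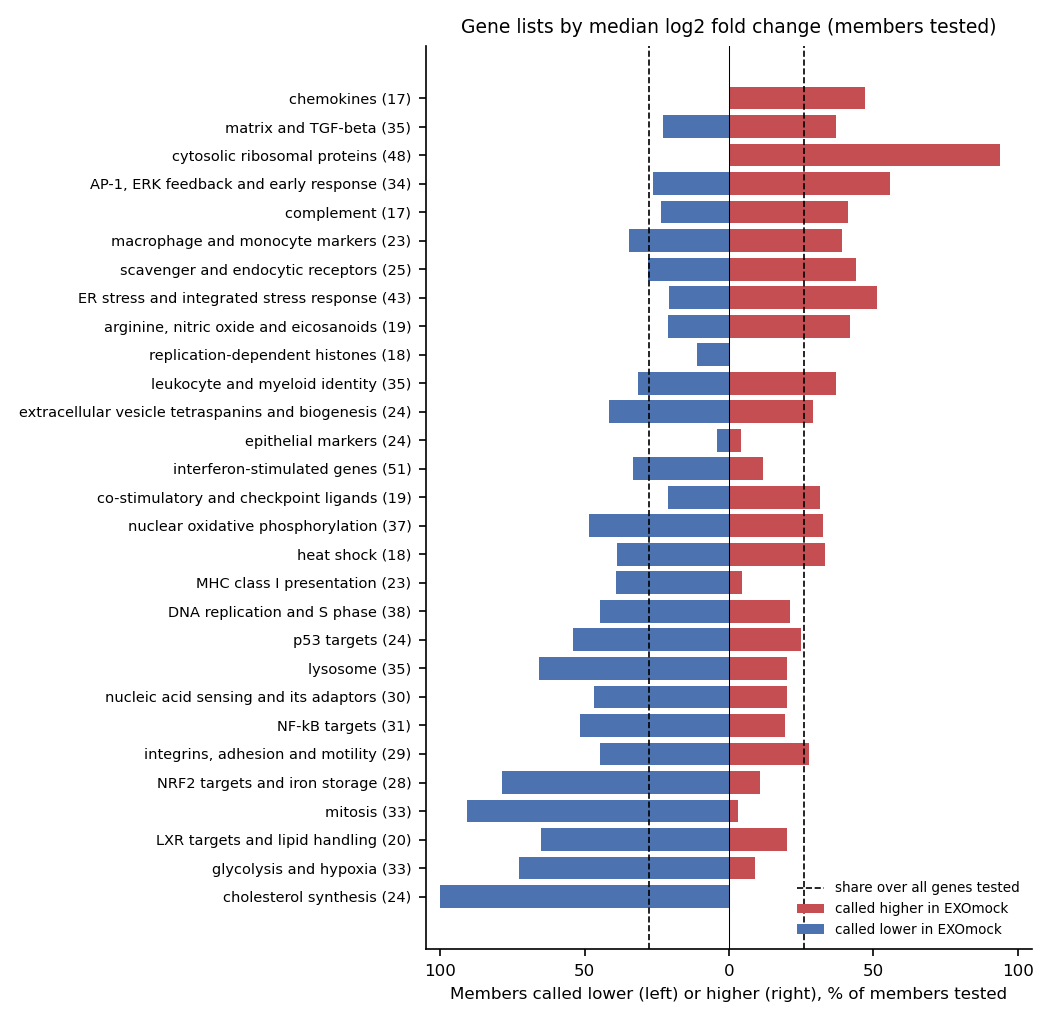
Share of the tested members of each list called higher (red, to the right) or lower (blue, to the left) in EXOmock, for lists with 15 or more tested members ordered by median log2 fold change, with dashed lines at the shares over all genes, 26.1% and 27.6%. Ribosomal proteins reach furthest to the right with 45 of 48 called higher, and cholesterol synthesis furthest to the left with 24 of 24 called lower.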

How the data were processed

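NEBNext Ultra libraries were made from 1.0 µg of column-purified total RNA, per the labels' protocols. Gene counts were used as the authors deposited them. Reads were aligned with HISAT2 to GRCm39, per the submitters' processing notes. Uniquely mapped read pairs were counted over exons with featureCounts (Subread 2.0.1), without a strand option, on Ensembl 103, per the file headers. Unique mapping lowers genes with close copies, and unstranded counting mixes overlapping partners. For HISAT2, a version is not given in the sources used. Symbols matched 52093 of 53647 identifiers.

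All 12 libraries entered 1 edgeR 4.0.16 fit (R 4.3.3), with a mean for each group, TMM factors, filterByExpr by group (14863 genes), the quasi-likelihood F test and Benjamini-Hochberg adjustment at 0.05. The common biological coefficient of variation was 3.05%. CPM use the deposited totals. Each standard error was computed as the absolute fold change over the square root of F. The procedure was tested on simulated counts. Floors of 3 counts cover counting error only, while the standard errors also include the spread between libraries of a group.

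The comparison, the 39 gene lists and the naming rule were chosen with earlier results of these data known. Named genes are the 12 largest rises and falls with 20 CPM or more in the higher group, groups that do not overlap and adjusted p below 0.05, a fixed list, and up to 4 called members per direction of each list discussed with 5 CPM or more; others are stated as named after their values were seen. No set test was run. Some members of the lists are counted but not reported singly here. The promoter windows come from RefSeq on GRCm38.p6, a different build from the counts, so their coordinates are not comparable with those of genes. The alternatives tried were DESeq2 1.42.0, edgeR with size factors of DESeq2 or upper quartiles, 2 other filters, limma-voom (limma 3.58.1), fits of 4 or 8 libraries, the preparation number as a block, glmTreat at 1.5-fold and leaving out each library. Removal of a lowess length trend and removal of transcripts confined to preparation 1 were added after seeing the data. Python 3.11.15 wrote the tables and matplotlib 3.10.9 the figures.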

Additional observations from a re-analysis of the deposited data

Results flagged for a closer look

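Of 243 named genes tested, 21 had a log2 fold change in EXOmock over 4T1-labelled Mock that differed from the one in EXOuniSTING over uniSTING mRNA labelled 4T1 by 2-fold or more, by the edgeR test of that difference (adjusted p below 0.05). The difference was above 0 for 9 genes and below 0 for 12, and it was called at 2-fold or more for 2.93% of all genes.

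Among interferon-induced genes, Cxcl10 had a difference of -3.68 and Ifit1 of -3.12 on the log2 scale, Oas3 of -2.25 and Lgals3bp of -1.12. Ifit1 was higher by 3.62 in the uniSTING pair (edgeR adjusted p = 1.96e-08) and by 0.49 in the Mock pair (edgeR adjusted p = 0.297). Cxcl10 rested on 7 and 0 counts in EXOmock, and without preparation 1 of EXOmock its log2 fold change in the Mock pair was -6.04 (edgeR adjusted p = 0.00213) in place of -0.84 (edgeR adjusted p = 0.393). Id3 had a difference of -2.14, having fallen in both pairs. The surface and adhesion genes Cd24a, Itgax, Mrc1 and Cd83 had -1.47, -1.21, -1.18 and -1.05. Asb10, Rasgrp3 and Myc had -1.23, -1.06 and -1.04.

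Among the genes with a difference above 0, F5 had 2.25, Stfa3 1.98, Ccl6 1.53, Ccr1 1.27, Acsbg1 1.20 and Fosl1 1.19. These 6 were called higher in the vesicle-treated libraries in both pairs. All but Fosl1 were named for being among the largest rises in the Mock pair, which favours a larger fold there, and the same holds for Id3, Oas3, Asb10 and Rasgrp3 among the falls. Xist had 1.08, Tfrc 1.05 and Mmp9 1.00. Xist was higher by 1.12 in the Mock pair (edgeR adjusted p = 2.35e-11) and by 0.04 in the uniSTING pair (edgeR adjusted p = 0.338).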

How the results depend on the processing

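The counts of genes called were within 1.5 times the main ones under each alternative run except glmTreat, which asks for more than 1.5-fold by construction. It called 611 genes higher and 709 lower, 369 of them higher by 2-fold or more, and 490 higher and 451 lower in the uniSTING pair. Leaving out each library in turn gave 3170 to 3365 genes higher and 3643 to 3883 lower in EXOmock, with 554 to 610 and 413 to 439 at 2-fold. In the uniSTING pair it gave 2971 to 3141 higher and 3302 to 3475 lower. An arm of 1 library is then assumed to vary like the other groups. Without a filter on low counts, edgeR gave every gene the trended spread, so its p-values of single genes are of little use. They make up 4 of the lost calls and 1 of the gained calls below. Upper-quartile factors moved the counts to 4653 higher and 3503 lower. Same-numbered libraries deviated together (r = 0.59 across 8013 genes), but 2 pairs do not establish pairing, and with the preparation number as a block 3957 genes were higher and 4160 lower.

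Of 3637 alternative values of 243 named genes, 3453 kept direction and side of the threshold, 181 lost the call, 3 gained one and 0 changed sign. Of the lost calls, 101 came with glmTreat, so those genes were not shown to differ by more than 1.5-fold. Itgam, Cd68, Cd274, Tap1, Ifitm3, Cd9, Cd63 and Cd81 were among them. The gained calls were those of Tyrobp with no filter and with the 4 libraries alone (edgeR adjusted p = 0.00926 and 0.0452), and of Cxcl10 without EXOmock preparation 1 (log2 fold change -6.04, edgeR adjusted p = 0.00213). The calls of Lyz2, Cd36, Cd53 and Selenbp1 were lost with DESeq2, and the cause was not tested. The call of Spi1 was lost with DESeq2, with upper-quartile factors and without 3 of the 4 libraries. The call of Myc was lost without EXOmock preparation 2 (edgeR adjusted p = 0.123) or 4T1-labelled Mock preparation 1 (edgeR adjusted p = 0.0556). Depth limits genes near 3 counts.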
